A study of Homo sapiens with 20 samples.

Results

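The UGT2B genes encode UDP-glucuronosyltransferases of the endoplasmic reticulum, which transfer glucuronic acid from UDP-glucuronate to small lipophilic molecules. In prostate cells UGT2B15 and UGT2B17 attach it to dihydrotestosterone (DHT) and its metabolites, and the conjugates are inactive as androgens. UGT2B15 and UGT2B17 are known to be lowered by androgens in prostate cancer cells, and UGT2B4 and UGT2B7 are best known from the liver, where their substrates include bile acids and many drugs. The list taken here held 7 genes, UGT2B4, UGT2B7, UGT2B10, UGT2B11, UGT2B15, UGT2B17 and UGT2B28, chosen by symbol. Earlier results of these data were known at that choice, so its counts set beside those of all genes are descriptions. In the annotation used, 6 of 54675 probe sets named 1 of them, and these 6 read 4 genes: UGT2B15 with 3 probe sets, and UGT2B4, UGT2B17 and UGT2B28 with 1 each. No probe set was listed for UGT2B7, UGT2B10 and UGT2B11 and none named several UGT2B genes, so those 3 genes have no value here, and the brightest probe set stood for each of the other 4 among 19775 genes. The probe sets of UGT2B28 and the 2 brighter ones of UGT2B15 carry the suffix _x_at, Affymetrix's mark for probes that also match other sequences, so their signals may be shared between paralogs.

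The study measured RNA on 20 Affymetrix arrays from 2 human prostate cancer lines, LNCaP and C42B, a castration-resistant line derived from LNCaP. Both lines received an siRNA against LSD1 (siLSD1), a lysine demethylase of histones whose gene is KDM1A, or the control siRNA labelled siNTC, with 3 arrays in each group. In C42B the transfection lasted 6 h and was followed by 96 h in charcoal-stripped serum at 10%, which holds little steroid, whereas LNCaP cells received 50 nM siRNA and grew in fetal bovine serum at 10% over 96 h. In a separate experiment C42B cells spent 72 h in stripped serum and then 16 h with 100 nM DHT, the strongest natural androgen, or with ethanol vehicle, with 4 arrays in each group. With 1 siLSD1 label in each line, an effect of the sequence of that siRNA and one of lower LSD1 cannot be told apart. RNA came from separate wells in C42B and from pooled pairs of wells in LNCaP; the labels do not say whether these were independent cultures, so the p-values rest on a spread between samples that may be only technical.

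KDM1A averaged 7.88 ± 0.12 with siLSD1 and 10.29 ± 0.08 with siNTC on the log2 scale in C42B, and 7.30 ± 0.09 with siLSD1 and 10.08 ± 0.14 with siNTC in LNCaP (SD, n = 3 each). In all 12 siRNA arrays the signal of the targeted gene went with the label. Array medians ran from 78.4 to 81.2 in the C42B siRNA experiment, from 84.1 to 86.1 in the DHT experiment and from 63.3 to 65.1 in LNCaP, so the experiments look separately normalized and levels are compared only within one of them. Of 12 prostate luminal markers 10 had a value, and all 10 averaged at least 6 on the log2 scale in every group, the mark used here for a bright signal. In C42B the luminal protease gene KLK2 rose with DHT by 5.19 ± 0.06 and KLK3, which encodes prostate-specific antigen, by 2.74 ± 0.07 on the log2 scale (limma, SE). Of 13 hepatocyte markers, written down because UGT2B4 is a liver gene, 5 or 6 were bright in a given group. In the C42B siRNA groups the 5 bright ones were APOA1, TTR, CYP3A4, CYP2E1 and HP, with means of 7.30 to 9.70. The others were dim there, among them ALB, the albumin gene, at 4.36 with siLSD1 and 4.43 with siNTC. Luminal markers moved with the groups: their summed intensity was 63200 to 63510 with siLSD1 against 49380 to 50040 with siNTC in C42B, 48110 to 49230 with siLSD1 against 37890 to 38990 with siNTC in LNCaP, and 66560 to 67570 with DHT against 31370 to 33040 with vehicle, and their part in the results below was not tested. With siLSD1, 5 luminal markers rose and none fell in each line, and 6 rose and 2 fell with DHT, where all genes gave 8.66% higher and 9.39% lower with siLSD1 in C42B, 13.4% higher and 12.5% lower in LNCaP, and 13.4% higher and 19.4% lower with DHT. Hepatocyte markers gave 1 rise in LNCaP and 1 fall with DHT, the 4 measured basal markers 1 rise in LNCaP and 1 with DHT, and the 11 stromal, endothelial and leukocyte markers 1 fall in LNCaP and 1 with DHT, with no call in C42B with siLSD1. Both basal rises were those of KRT14, on dim signals.

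UGT2B15 and UGT2B17 fell in all 3 comparisons, UGT2B28 fell with siLSD1 in LNCaP, and UGT2B4 stayed dim throughout. With siLSD1, 2 of the 4 measured genes passed lower in C42B and 4 of 4 in LNCaP, against 9.39% and 12.5% of all genes tested that passed lower. With DHT, 2 of 4 passed lower, against 19.4% of all genes. UGT2B15 and UGT2B17 passed lower in both lines, as did 5.64% of all genes, and in both lines and with DHT, as did 1.45%. No member passed higher. With only 4 measured this is near the share of all genes, 8.66% with siLSD1 in C42B, 13.4% in LNCaP and 13.4% with DHT. Passing means an adjusted p below 0.05 in limma's fit over 19775 genes. Fewer cells that express a gene and less of its RNA per cell cannot be told apart in such bulk samples.

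UGT2B15, the main conjugating enzyme of DHT and androstanediol in the prostate, was bright in every group by its brightest probe set. In C42B its log2 intensity was 7.81, 7.65 and 7.57 with siLSD1, against 8.55, 8.54 and 8.55 with siNTC. The groups stood apart by 0.73, and the signal fell by 45.2% (log2 fold change -0.87 ± 0.07, SE, limma adjusted p = 0.00042). It ranked 10th among the falls of all genes in that comparison.

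In LNCaP the UGT2B15 signal was 10.20, 10.15 and 10.03 with siLSD1, against 11.70, 11.64 and 11.74 with siNTC. Every siLSD1 array lay at least 1.44 below every siNTC array, and the log2 fold change was -1.57 ± 0.07 (limma adjusted p = 7.1e-06). With DHT in C42B the signal was 6.94, 7.33, 7.53 and 7.41, against 9.37, 9.51, 9.29 and 9.38 with vehicle. All 4 DHT arrays lay at least 1.76 below the vehicle arrays, and the signal fell by 76.5% (log2 fold change -2.09 ± 0.11, limma adjusted p = 8.3e-07). Groups that stood wholly apart in the lower direction were common, at 19.9% of all genes for siLSD1 in C42B, 19.5% in LNCaP and 20.6% for DHT.

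The 3 probe sets of UGT2B15 can be set beside each other as changes, not as levels. The second brightest changed by -0.59 with siLSD1 in C42B (adjusted p = 0.025 over all probe sets, limma), by -1.89 in LNCaP (adjusted p = 1.9e-05) and by -2.02 with DHT (adjusted p = 3.3e-07), the last a fitted value with the DHT mean of 5.46 dim. Over all probe sets, 4.91% passed lower with siLSD1 in C42B, 8.89% in LNCaP and 13.2% with DHT. The dimmest one, the only one of the 3 without the cross-match suffix, stayed dim, at group means of 3.69 to 4.36. It changed by -0.03, -0.31 and -0.21 in the same order, with limma adjusted p-values of 0.88, 0.06 and 0.31. The falls given for UGT2B15 thus rest on probe sets whose signals may be shared between paralogs. With all 3 averaged, the dim one included, the log2 fold change of UGT2B15 was -0.49 with siLSD1 in C42B (limma adjusted p = 0.00068) and -1.44 with DHT (limma adjusted p = 2.4e-08).

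**Figure D1:**
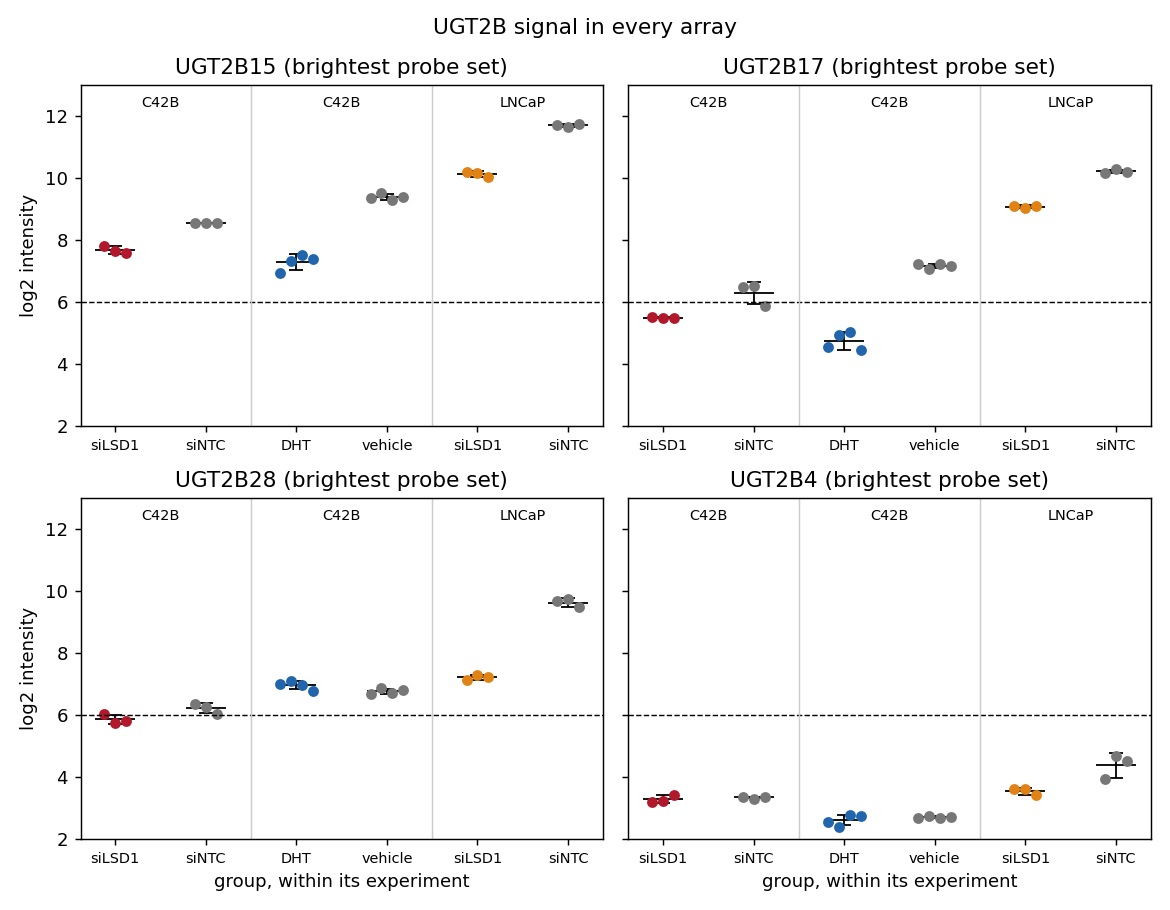
Log2 intensity of the brightest probe set of each measured UGT2B gene in all 20 arrays, by group within each experiment. Points are arrays, bars the mean and SD, and the dashed line is the bright mark of 6. UGT2B15 and UGT2B17 are lower in every siLSD1 and DHT array than in the matching control arrays, UGT2B28 separates clearly in LNCaP, and UGT2B4 lies below the line throughout.

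The promoter of UGT2B15 is shown because it is the only measured member for which the RefSeq promoter table held a sequence. The run gives the 250 bases before its annotated start, at chr4:68670653-68670902 on the minus strand of GRCh38.p14, read 5′ to 3′. Capitals mark matches, on either strand, to AGAACA, the core repeat of the androgen response element, and to TATTTAC or TGTTTAC, forms of the motif bound by FOXA factors.
UGT2B15: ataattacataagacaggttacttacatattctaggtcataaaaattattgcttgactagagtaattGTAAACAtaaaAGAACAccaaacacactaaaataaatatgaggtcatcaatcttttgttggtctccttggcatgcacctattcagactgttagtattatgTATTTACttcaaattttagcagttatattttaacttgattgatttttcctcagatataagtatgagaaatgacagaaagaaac
AGAACA begins 172 bases before the start, and 12.4% of 35116 promoter windows of the same length held it. TATTTAC begins 83 bases before the start, against 2.39% of windows that held it, and TGTTTAC, found on the opposite strand as GTAAACA, begins 183 bases before it, against 2.98% of windows. No match overlapped another, and the full HNF1 motif, which 2 windows held, was not among these letters. A match describes the letters only; binding was not measured.

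UGT2B17, which conjugates testosterone as well as DHT, had its own probe set without the cross-match suffix. In C42B its log2 intensity was 5.51, 5.48 and 5.50 with siLSD1, against 6.47, 6.51 and 5.89 with siNTC. The groups did not overlap, although siNTC replicate 3 lay closer to the siLSD1 arrays than to the other siNTC arrays. The fitted change was -0.80 ± 0.15 (limma adjusted p = 0.012), and because the siLSD1 mean of 5.50 was dim, the fall counted from the bright mark was at least 0.29.

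With siLSD1 in LNCaP UGT2B17 was at 9.09, 9.04 and 9.11, against 10.18, 10.28 and 10.18 with siNTC. Both groups were bright, and the signal fell by 54.3% (log2 fold change -1.13 ± 0.06, limma adjusted p = 1.2e-05). DHT gave 4.55, 4.95, 5.03 and 4.46 in C42B, against 7.23, 7.08, 7.22 and 7.18 with vehicle. The DHT arrays lay at least 2.06 below the vehicle arrays and were dim, so the fall was at least 1.18 counted from 6, with a fitted value of -2.43 ± 0.12 (limma adjusted p = 4.6e-07).

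UGT2B28 is an enzyme with activity toward androgens and estrogens, and it was bright in both LNCaP groups. In LNCaP its log2 intensity was 7.14, 7.31 and 7.23 with siLSD1, against 9.69, 9.73 and 9.48 with siNTC. Every siLSD1 array was at least 2.17 below every siNTC array, and the signal fell by 81.1% (log2 fold change -2.40 ± 0.08, limma adjusted p = 3.1e-06). Among 19775 genes it ranked 4th among the falls in LNCaP, where KDM1A ranked 1st.

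In C42B UGT2B28 was at 6.04, 5.74 and 5.82 with siLSD1, against 6.37, 6.26 and 6.05 with siNTC. The groups lay 0.01 apart, and the fitted change of -0.36 ± 0.10 missed the threshold (limma adjusted p = 0.051). The siLSD1 mean of 5.87 was dim, so only the 0.23 between the siNTC mean and the bright mark is measured between bright values. It passed under 9 of 15 alternative settings, at adjusted p-values of 0.01 to 0.16 over all of them. The unadjusted 95% interval of the fitted change ran from -0.60 to -0.12.

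With DHT in C42B UGT2B28 was at 6.99, 7.10, 6.97 and 6.79, against 6.70, 6.88, 6.71 and 6.80 with vehicle. The groups overlapped, and the change of 0.19 ± 0.07 did not pass (limma adjusted p = 0.068, 95% interval 0.03 to 0.35). It passed higher under 4 of 17 alternatives.

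UGT2B4 was dim in all 6 groups, with means of 2.63 to 4.38. In LNCaP it was at 3.61, 3.62 and 3.42 with siLSD1, against 3.94, 4.68 and 4.53 with siNTC. It passed lower there (limma adjusted p = 0.0079), but both groups were under the bright mark, so no fold is given. In C42B it did not pass with siLSD1 (limma adjusted p = 0.68) or with DHT (adjusted p = 0.41), and the groups overlapped in both.

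**Figure D2:**
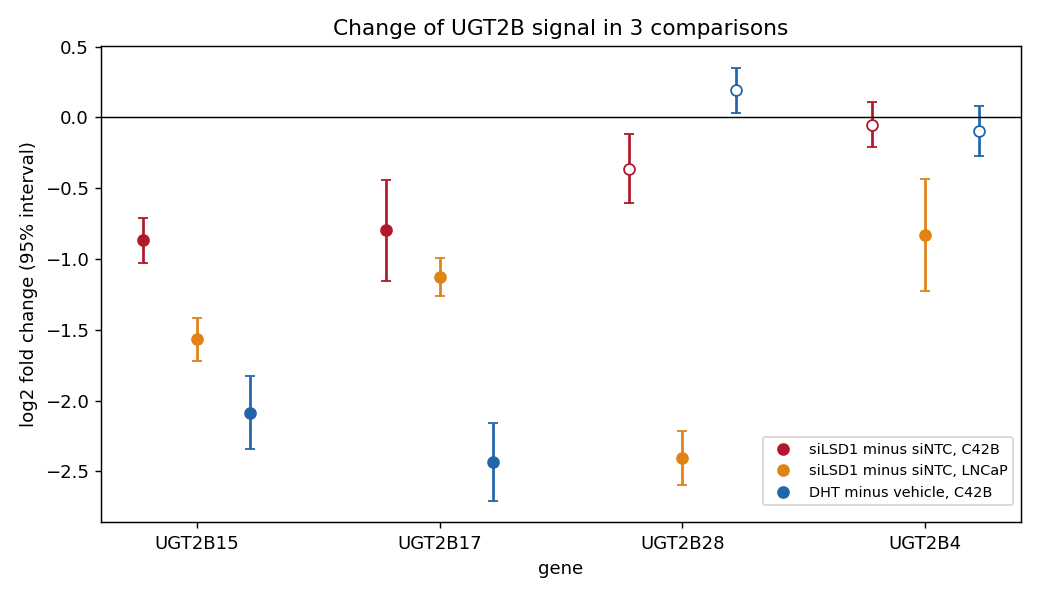
Log2 fold change of each measured UGT2B gene with its 95% interval from limma, for siLSD1 against siNTC in C42B and LNCaP and for DHT against vehicle in C42B. Filled points passed at an adjusted p under 0.05 and open points did not. UGT2B15 and UGT2B17 lie lowest with DHT, at -2.09 and -2.43, UGT2B28 lies lowest with siLSD1 in LNCaP, at -2.40, and the UGT2B4 points compare dim groups. UGT2B17 was dim with DHT and with siLSD1 in C42B, and UGT2B28 with siLSD1 in C42B, so those points are fitted values, not folds between bright groups.

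The siRNA effect in C42B was set against that in LNCaP in 1 limma fit of all 12 siRNA arrays, and 3 of the 4 members passed with a positive difference, against 5.56% of all genes. For UGT2B28 the change in C42B minus that in LNCaP was 2.04 ± 0.14 on the log2 scale (SE, limma adjusted p = 1.2e-05), a fitted value. In C42B its siLSD1 mean of 5.87 was dim and its siNTC mean of 6.23 barely bright, so the size of the change there, and with it the size of the difference, is not settled, and the part of that low signal in the difference was not tested. For UGT2B15 the difference was 0.70 ± 0.09 (limma adjusted p = 0.00059), where the signal fell by 45.2% in C42B and fell by 66.2% in LNCaP. Its second brightest probe set gave 1.31 ± 0.18 (limma adjusted p = 0.001 over all probe sets) and its dim one 0.28 ± 0.13 (adjusted p = 0.23). The size of the difference therefore depended on the probe set. For UGT2B17, dim with siLSD1 in C42B like UGT2B28, the difference was 0.33 ± 0.18 (limma adjusted p = 0.26). Its interval of -0.05 to 0.71 does not show that the lines responded alike. UGT2B4 passed (limma adjusted p = 0.028) on dim signals, and lost its call when any 1 of 8 arrays was left out (adjusted p = 0.051 to 0.072). The lines differed in serum as well as in origin, so line and medium cannot be told apart.

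Differences between 2 members within an array show how unequally they changed. UGT2B28 minus UGT2B15 ran from -0.62 to 0.06 in the DHT arrays, against -2.68 to -2.58 in the vehicle arrays, a shift of 2.28. With siLSD1 in LNCaP it ran the other way, from -3.06 to -2.80 with siLSD1 and from -2.26 to -1.91 with siNTC, a shift of -0.84. In C42B the same difference ran from -1.91 to -1.76 with siLSD1 and from -2.50 to -2.18 with siNTC, a shift of 0.51. The groups did not overlap in any of the 3, and in LNCaP and with DHT, where both genes were bright in both groups, the 2 probe sets changed unequally although both carry the cross-match suffix. In C42B with siLSD1 UGT2B28 was dim, so the 0.51 does not show unequal change. UGT2B17 minus UGT2B15 shifted by 0.07 with siLSD1 in C42B and by -0.34 with DHT, with overlapping groups in both, and by 0.44 in LNCaP, where the groups did not overlap. UGT2B17 was dim with siLSD1 in C42B and with DHT, so of these 3 shifts that in LNCaP alone lies between bright signals. These differences were chosen after the values were seen and are given as descriptions, with no test. How often other pairs of genes stand apart in this way was not counted, so the lack of overlap has no share of all pairs beside it.

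**Figure D3:**
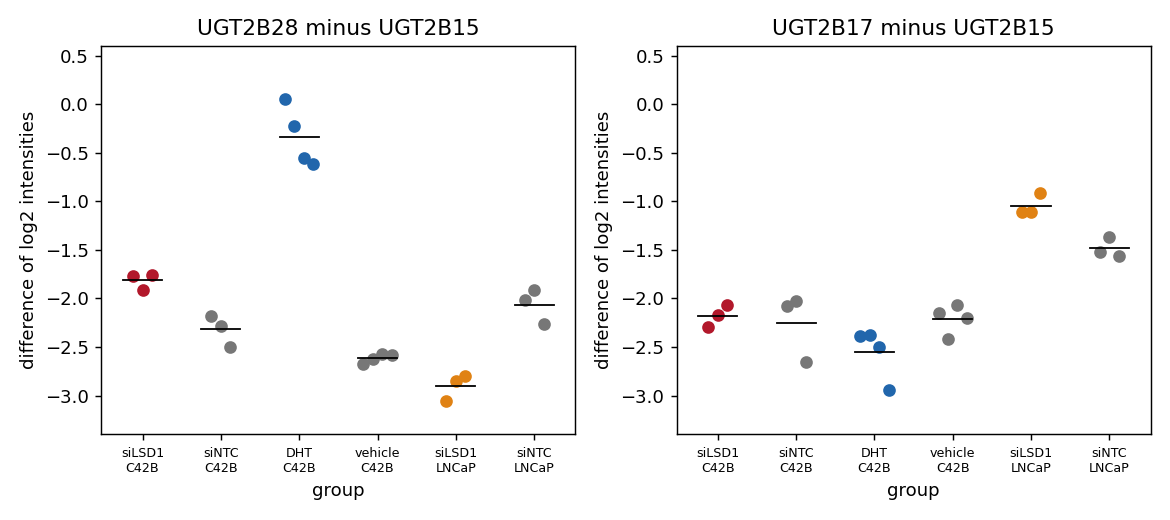
Difference of log2 intensities between UGT2B28 and UGT2B15 (left) and between UGT2B17 and UGT2B15 (right) in every array, by group, with group means as lines. The left panel has the DHT arrays on average 2.28 above vehicle and the LNCaP siLSD1 arrays below siNTC, while the right panel moves by at most 0.44 between group means; UGT2B17 was dim with DHT and, like UGT2B28, with siLSD1 in C42B.

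On the reference map (GRCh38.p14) the 7 genes lie in 1 stretch of chromosome 4, in the order UGT2B17, UGT2B15, UGT2B10, UGT2B7, UGT2B11, UGT2B28 and UGT2B4. Of 11 other protein-coding genes in that stretch and among the 5 on each side of it, 7 had a value. Among these 7, 1 passed higher and 1 lower with siLSD1 in C42B, 1 passed lower in LNCaP and 1 passed higher with DHT, and 1 of 7 is near the share of all genes, 8.66% higher and 9.39% lower in C42B, 12.5% lower in LNCaP and 13.4% higher with DHT. The one that passed in all 3 was TMPRSS11E, a serine protease gene next to UGT2B17, named after its values were seen. It averaged 5.53 with siLSD1 and 5.06 with siNTC in C42B, 5.30 with siLSD1 and 6.03 with siNTC in LNCaP, and 5.40 with DHT and 4.53 with vehicle, so it went up in C42B and down in LNCaP on mostly dim signals. YTHDC1, a reader of methylated RNA on the other side of TMPRSS11E, was bright and fell by 0.23 ± 0.06 with siLSD1 in C42B (limma adjusted p = 0.028). In LNCaP it changed by -0.25, which did not pass (limma adjusted p = 0.067). UGT2A3, inside the stretch, was dim and did not pass in any of the 3 comparisons (adjusted p = 0.43 to 0.74). TMPRSS11B, SULT1B1, SULT1E1 and CSN1S1 were also dim in all 3, so these neighbours could show little of a fall.

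**Figure D4:**
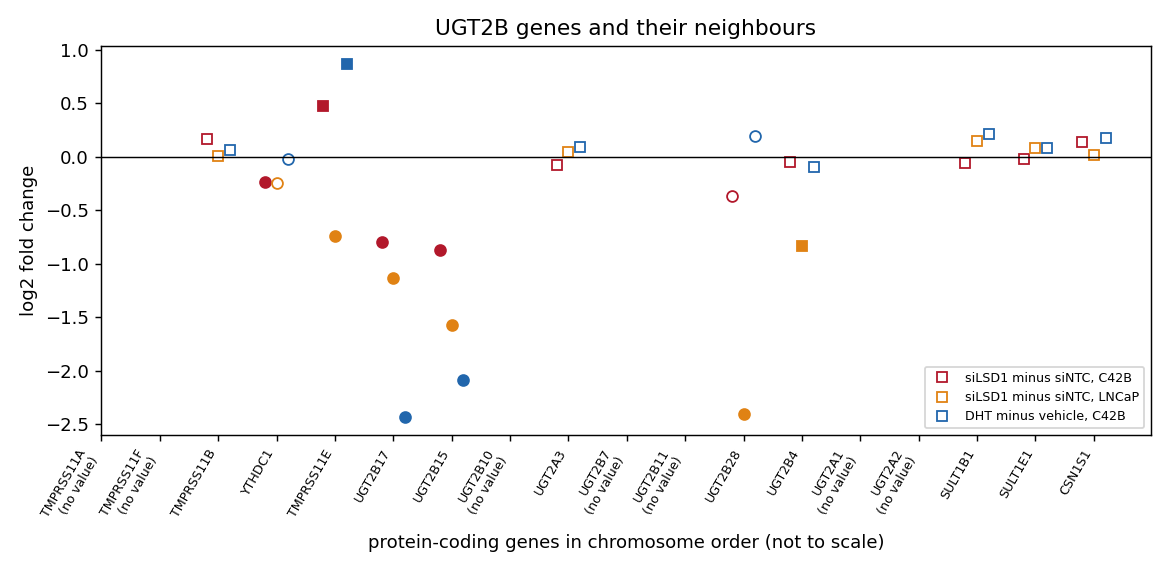
Log2 fold change of the UGT2B genes and their protein-coding neighbours in chromosome order, with even spacing that is not to scale. Circles are genes bright in at least 1 of the compared groups and squares are dim in both, and filled symbols passed at an adjusted p under 0.05. UGT2B17, UGT2B15 and UGT2B28 are drawn among neighbours with no value or with changes between -0.74 and 0.87. That range holds the -0.36 of UGT2B28 with siLSD1 in C42B. Apart from YTHDC1, and TMPRSS11E in LNCaP, the neighbours with a value were dim and could show little of a fall.

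The counts of the gene lists that follow stand beside 8.66% of all genes higher and 9.39% lower with siLSD1 in C42B, 13.4% higher and 12.5% lower in LNCaP, and 13.4% higher and 19.4% lower with DHT, and their median log2 fold changes beside -0.02, 0.01 and 0.01 over all genes in that order. Of 15 other genes with a UGT symbol, not all of them glucuronosyltransferases, 5 were measured and 4 of these were dim, with list medians of -0.08, -0.02 and 0.06. The bright one, UGT8, which makes the galactolipids of myelin, passed lower in all 3 comparisons. It fell by 0.47 ± 0.06 with siLSD1 in C42B, by at least 0.74 in LNCaP, where the siLSD1 mean of 5.12 was dim against 6.74 with siNTC, and fell by 1.02 ± 0.04 with DHT (limma adjusted p = 0.002, adjusted p = 1.3e-05 and adjusted p = 1.4e-07). The 8 probe sets that name several UGT1A or UGT2A genes, 7 of them for UGT1A, changed by -0.23 to 0.05 with siLSD1 in C42B, by -0.08 to 0.31 in LNCaP and by -0.13 to 0.29 with DHT, and 1 of them passed, higher in LNCaP.

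UDP-glucuronate, the sugar donor, is made from glucose by way of UDP-glucose, and 11 of 11 genes of its supply and of glucuronide hydrolysis were measured. With siLSD1, 2 rose and 2 fell in C42B, with a median of 0.04 against -0.02 for all genes, and 3 rose and 2 fell in LNCaP, with a median of 0.08 against 0.01. UGDH, which oxidises UDP-glucose to UDP-glucuronate, rose with DHT by 0.61 ± 0.07 (limma adjusted p = 1.1e-04). With DHT 4 of the 11 rose and 3 fell, beside 13.4% and 19.4% of all genes, with a median of -0.09 against 0.01. HK1, a hexokinase, rose by 0.49 ± 0.05 with siLSD1 in C42B, by 0.32 ± 0.06 in LNCaP and by 0.32 ± 0.05 with DHT. HK2, another hexokinase, fell by 0.46 ± 0.05 with siLSD1 in C42B and by 0.34 ± 0.09 in LNCaP and rose by 0.89 ± 0.05 with DHT. SLC35D2, a nucleotide sugar transporter, rose by 0.48 ± 0.06 with siLSD1 in C42B and by 0.63 ± 0.06 in LNCaP, and fell by 0.24 ± 0.04 with DHT. GUSB, the lysosomal enzyme that removes glucuronic acid again, fell by 0.43 ± 0.05 in C42B and by 0.39 ± 0.06 in LNCaP with siLSD1 and by 0.20 ± 0.06 with DHT.

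Of 28 reductases and dehydrogenases that act on steroids, 25 were measured. With siLSD1, 3 rose and none fell in C42B, and 7 rose and 1 fell in LNCaP; with DHT 3 rose and 2 fell. Among these rises HSD3B1 and CYP19A1 in LNCaP and AKR1D1 with DHT were dim in both groups. The list medians were 0.06, 0.04 and 0.05, and 3 of 25 is close to the share of all genes that rose in C42B and with DHT. SRD5A1, a reductase that makes DHT from testosterone, rose by 0.50 ± 0.06 with siLSD1 in C42B and by 0.29 ± 0.06 in LNCaP. HSD17B6, which converts androstanediol back toward DHT, rose by 0.48 ± 0.06 in C42B and by 0.33 ± 0.07 in LNCaP. HSD17B4, a peroxisomal dehydrogenase, rose with siLSD1 by 0.47 ± 0.05 in C42B and by 0.20 ± 0.06 in LNCaP and with DHT by 0.50 ± 0.04. AKR1C3, which makes testosterone from androstenedione, rose by at least 1.64 with siLSD1 in LNCaP, to 7.64 against 5.97 with siNTC, and was dim in both groups in C42B.

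Sulfation is the other main conjugation of steroids, and 8 of its 9 listed genes were measured. With siLSD1, 1 rose and none fell in C42B and 1 rose and 1 fell in LNCaP, and with DHT 2 rose and 1 fell, with list medians of 0.06, 0.05 and 0.04; 1 of 8 is about the share of all genes. SULT2B1, a hydroxysteroid sulfotransferase, rose by 0.32 ± 0.07 with siLSD1 in C42B and by 0.63 ± 0.11 in LNCaP. PAPSS1, which makes the sulfate donor, fell by 0.39 ± 0.06 in LNCaP and rose by 0.36 ± 0.04 with DHT, when the steroid sulfatase STS rose by 0.28 ± 0.05. Among 8 measured export pumps of conjugates, 2 rose and none fell with siLSD1 in each line, and 2 rose and 2 fell with DHT, with list medians of -0.04, 0.10 and 0.09. ABCC4, which exports steroid conjugates among other anions, rose by 0.78 ± 0.07 with siLSD1 in C42B, by 0.44 ± 0.07 in LNCaP and by 2.57 ± 0.06 with DHT. ABCC1 rose by 1.56 ± 0.04 with DHT, when ABCC5 fell by 0.81 ± 0.07 and ABCG2 by 0.82 ± 0.06.

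Of 20 transcription factors known from work on UGT2B promoters 12 had a value, and those without one were not analysed here. With siLSD1, 1 rose and 1 fell in C42B, and 1 rose and 2 fell in LNCaP, while with DHT 2 rose and 5 fell, with list medians of -0.01, 0.06 and -0.08; 1 of 12 is near the share of all genes in C42B. CEBPA, a factor of liver and fat cells, fell in all 3 comparisons, by 0.26 ± 0.06 and 0.40 ± 0.08 with siLSD1 in C42B and LNCaP and by 0.27 ± 0.04 with DHT. With DHT CEBPB fell by 0.43 ± 0.05, AHR by 0.37 ± 0.08 and RXRA by 0.33 ± 0.05, and none of these passed with siLSD1 in either line. VDR fell by 0.26 ± 0.05 with DHT and rose by 0.19 ± 0.05 with siLSD1 in C42B. PPARA, a fatty acid receptor, rose by 1.03 ± 0.07 with siLSD1 in LNCaP and by 0.32 ± 0.05 with DHT. The other factor that rose with DHT, NR1I3, was dim in both groups. FOXA1, named after its values were seen because FOXA motifs are shown above, averaged 11.98 in both siRNA groups of C42B and did not pass in any comparison (limma adjusted p = 0.41 to 0.99).

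The genes whose pattern was most like a member's were found by the root mean square difference over the 20 arrays of log2 values, each counted from the control mean of its experiment, with dim values as they stood. Between UGT2B17 and UGT2B15 this difference was 0.29, against 1.10 between UGT2B28 and UGT2B15 and 1.29 between UGT2B28 and UGT2B17. The nearest genes outside the family were LINC01133 (0.31), PLD1 (0.44) and RAP2B (0.44) for UGT2B15, and PLD1 (0.39), OSR2 (0.40) and LINC01133 (0.42) for UGT2B17. LINC01133, a long noncoding RNA gene, had fitted changes of -0.55 with siLSD1 in C42B, -1.56 in LNCaP and -1.73 with DHT (limma adjusted p = 0.0056, adjusted p = 2.5e-05 and adjusted p = 5.7e-06). PLD1, a phospholipase, had fitted changes of -0.48, -0.54 and -1.96 in the same order. For UGT2B28 the nearest were MYBL1 (0.23), a transcription factor of the MYB family, the Mediator kinase gene CDK19 (0.27) and ID1 (0.29), an inhibitor of basic helix-loop-helix factors. Their fitted changes for siLSD1 in LNCaP were -2.52, -1.90 and -1.97 in that order. With siLSD1 in C42B they were -0.67, -0.44 and -0.58, and all passed (limma adjusted p = 0.00031, 0.0014 and 0.0012), where UGT2B28 did not. With DHT they were 0.25, -0.15 and -0.15, and MYBL1 and CDK19 passed (limma adjusted p = 0.0078 and 0.025). In LNCaP with siLSD1 the means of LINC01133 (5.92), PLD1 (5.98), MYBL1 (5.01) and ID1 (5.62) were dim, so their fitted changes there are not folds between bright groups. When a gene was represented by the average over its probe sets, 0 of the 3 nearest genes of UGT2B15, 1 of UGT2B17's and 1 of UGT2B28's stayed among the 3.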

How the data were processed

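The deposited table holds 1 intensity value per probe set and array on a linear scale, and the submitters' processing notes list RMA and affy, without a version. Labelling kit is not tied to samples in the labels and was not a term. Log2 was taken of each deposited intensity. Of 54675 probe sets, 62 were controls, 41091 named 1 gene, 1801 several and 11721 none. Symbols were updated by gene ID to RefSeq on GRCh38.p14. The brightest probe set over the 20 arrays stood for a gene. Comparisons were two-sided limma 3.58.1 fits (lmFit, eBayes; R 4.3.3), without covariates, each on its own arrays, with Benjamini-Hochberg adjustment over 19775 genes, and were tested on simulated data. Motifs and figures used Python 3.11.15, pandas 2.3.3 and matplotlib 3.10.9. The threshold was an adjusted p of 0.05. A group mean of at least 6 was called bright; with 1 dim group a fall or rise was counted from 6. The rule named the members, KDM1A, up to 6 passing genes per list and comparison and the 3 genes nearest each of 3 members. Members and lists were chosen with earlier results of these data known. Same-numbered arrays of compared groups correlated at -0.096 to 0.2 around their group means, and differently numbered ones at -0.24 to 0.19. No pairing by number was seen, but so few arrays cannot exclude a weak one. Arrays limit precision by their number.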

Additional observations from a re-analysis of the deposited data

Results flagged for a closer look

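The siLSD1 effect differed between C42B and LNCaP for several of the genes named, by the contrast over the 12 siRNA arrays with limma. Among the UGT2B genes the adjusted p of the difference was 1.2e-05 for UGT2B28, 0.00059 for UGT2B15 and 0.028 for UGT2B4; UGT2B4 was dim throughout and UGT2B28 dim with siLSD1 in C42B. Among genes of the surrounding pathway the adjusted p was 4.6e-05 for UGT8, 4.8e-05 for AKR1C3, 8e-05 for PPARA, 0.033 for HSD17B4 and 0.046 for ABCC4. KLK2 had an adjusted p of 0.009 and TMPRSS11E, beside UGT2B17 on the chromosome, one of 0.0022. Among the genes with patterns near those of UGT2B15 and UGT2B28 it was 2.8e-07 for CDK19, 0.00068 for ID1, 0.00077 for LINC01133 and 0.0011 for MYBL1, all with limma.

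In the groups of 4 arrays, 3 of the named genes had 1 array far from the other 3 for their spread. These were ABCC1 at 11.69 on the log2 scale in DHT replicate 3, YTHDC1 at 11.04 in DHT replicate 4 and ABCC4 at 9.60 in vehicle replicate 1. The group means were 11.74 (SD 0.04), 11.08 (SD 0.03) and 9.72 (SD 0.08) in that order, so the distances were small in size. Chance alone marks about 1 in 20 such groups.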

How the results depend on the processing

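The falls of UGT2B15 and UGT2B17 in all 3 comparisons and of UGT2B28 in LNCaP passed under every alternative run, at limma adjusted p-values up to 0.046. The number of UGT2B genes passing was 2 or 3 for siLSD1 in C42B, 3 or 4 in LNCaP, 2 or 3 with DHT and 2 or 3 for the difference between the lines; the 3 in LNCaP came when dim genes, UGT2B4 among them, were removed. With the replicate block the count of all genes was 2788 for siLSD1 in C42B, 4928 in LNCaP, 5984 with DHT and 2009 for the difference. UGT2B28 then passed in C42B (limma adjusted p = 0.029), though no pairing by replicate number was seen. The block changed no other call of a UGT2B gene. For siLSD1 in C42B, where 3569 of all genes passed, leaving out 1 array gave 1907 to 3962: 1907 without siLSD1 replicate 3, 2111 without siLSD1 replicate 2, 2341 without siNTC replicate 2 and 2326 without siNTC replicate 3. For the difference, 2300 passed, and 3557 did with array weights. Levels moved by more than their SD when all 20 arrays were quantile normalized together. UGT2B15 came to 7.52 with siLSD1 and 8.43 with siNTC in C42B and to 10.31 with siLSD1 and 11.91 with siNTC in LNCaP. UGT2B17 came to 5.41 with siLSD1 in C42B, 7.07 with vehicle, and 9.24 with siLSD1 and 10.37 with siNTC in LNCaP. UGT2B28 came to 6.65 with vehicle and 7.45 with siLSD1 in LNCaP. UGT2B4 came to 3.16 with siLSD1 and 3.20 with siNTC in C42B, 2.96 with DHT and 3.06 with vehicle, and 3.36 with siLSD1 in LNCaP. The causes of these shifts were not tested.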
